A study of Mus musculus with 6 samples.

Results

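The 6 genes described here encode the NADPH oxidases of the intestinal epithelium: Nox1, its partners Noxo1, Noxa1 and Cyba, and the dual oxidase Duox2 with its maturation factor Duoxa2. They were taken by gene symbol from both deposited tables, 1 RefSeq entry each, out of 16819 genes in the first table. The group was selected on measured values, since the loss of Nox1 reads in the knockout libraries was known when the genes were chosen. Their differences between genotypes are therefore given as a description, without a test.

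NADPH oxidases are membrane enzymes that pass electrons from NADPH to oxygen. NOX1 makes superoxide and needs the membrane subunit p22phox (Cyba), the organizer NOXO1, the activator NOXA1 and a Rac GTPase. DUOX2 releases hydrogen peroxide, needs calcium and its partner DUOXA2, and is known in the gut as a host defence enzyme of the mucosal surface, while NOX1 is best known from the colon epithelium.

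The study sequenced mRNA of Lgr5-GFP+ cells sorted from small-intestinal crypts of C57BL/6 mice, after 3 tamoxifen injections and at 6 days post injection. RingKO mice carried Lgr5Gfp-CreERT2, Ring1a-/- and Ring1bf/f (2 libraries), and WT mice carried Lgr5Gfp-CreERT2 alone (2 libraries). Bcat_RingKO mice carried Lgr5Gfp-CreERT2-Ctnnb1-ex3, Ring1a-/- and Ring1bf/f (1 library), and Bcat mice carried Lgr5Gfp-CreERT2-Ctnnb1-ex3 (1 library). RING1A (gene Ring1) and RING1B (gene Rnf2) are the catalytic subunits of Polycomb repressive complex 1, and recombination of the Ctnnb1 exon 3 allele stabilizes β-catenin. Cre was driven from the Lgr5 locus, so Ring1b and Ctnnb1 were recombined in Lgr5+ cells and their offspring, whereas the Ring1a-/- allele is carried by the whole animal. The labels give neither the age of the mice nor whether the 2 libraries of a group came from separate animals.

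The deposited values of the first table are means of 2 libraries, from which the reads of each library were recovered, and the libraries are called A and B in arbitrary order. Library totals were 2911422 and 2651201 reads in RingKO, 6753789 and 6294932 in WT, 4470853 in Bcat_RingKO and 922153 in Bcat, so low genes are counted least precisely in Bcat. Between the libraries of a group, the SD of the log2 ratio over 7888 entries was 0.45 in RingKO and 0.25 in WT. Ring1 had 9 and 11 reads in the RingKO libraries, against 484 and 363 in WT, and 43 in Bcat_RingKO, against 24 in Bcat. The normalized Bcat_RingKO to Bcat ratio of Ring1 was 0.358 (95% counting interval 0.213 to 0.617), so Ring1 reads were lower but still present in the library labelled Bcat_RingKO. Rnf2 had 142 and 103 reads in RingKO, against 220 and 246 in WT, and 546 in Bcat_RingKO, against 78 in Bcat, and was not lower in RingKO by normalized value (deposited log2 fold 0.16), so reads over the whole transcript do not check the deletion of its floxed part. The stem cell gene Lgr5 was read in every library, at 461 and 222 reads in RingKO, 942 and 922 in WT, 1505 in Bcat_RingKO and 146 in Bcat. In bulk RNA, fewer cells of a type and less RNA per cell cannot be told apart.

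Polycomb repressive complex 1 is known to occupy promoters rich in CpG dinucleotides, so the 250 bases before the transcription start of 4 of the genes are shown: Nox1, with the largest difference between genotypes, its organizer Noxo1, and the neighbouring pair Duox2 and Duoxa2. The sequences are from RefSeq on GRCm38.p6, written 5′ to 3′ on the gene's strand, with each CpG in capitals. They lie at chrX:134111855-134112104 (minus strand, Nox1), chr17:24695984-24696233 (plus strand, Noxo1), chr2:122298228-122298477 (minus strand, Duox2) and chr2:122298650-122298899 (plus strand, Duoxa2).
Nox1: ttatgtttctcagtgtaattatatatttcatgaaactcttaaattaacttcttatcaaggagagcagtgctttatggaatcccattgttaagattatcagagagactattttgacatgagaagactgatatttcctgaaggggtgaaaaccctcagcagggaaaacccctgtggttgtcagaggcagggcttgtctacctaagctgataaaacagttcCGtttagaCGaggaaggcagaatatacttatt
Noxo1: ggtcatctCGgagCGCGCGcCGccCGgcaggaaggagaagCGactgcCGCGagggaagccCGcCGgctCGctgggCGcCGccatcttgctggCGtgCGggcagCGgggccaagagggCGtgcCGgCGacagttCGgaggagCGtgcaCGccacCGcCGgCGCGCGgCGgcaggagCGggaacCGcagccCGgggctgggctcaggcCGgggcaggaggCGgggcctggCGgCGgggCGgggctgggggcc
Duox2: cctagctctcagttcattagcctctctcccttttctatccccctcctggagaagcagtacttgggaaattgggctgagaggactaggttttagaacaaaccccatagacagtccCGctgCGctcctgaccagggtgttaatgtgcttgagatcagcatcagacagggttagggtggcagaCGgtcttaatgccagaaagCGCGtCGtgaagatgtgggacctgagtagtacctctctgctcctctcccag
Duoxa2: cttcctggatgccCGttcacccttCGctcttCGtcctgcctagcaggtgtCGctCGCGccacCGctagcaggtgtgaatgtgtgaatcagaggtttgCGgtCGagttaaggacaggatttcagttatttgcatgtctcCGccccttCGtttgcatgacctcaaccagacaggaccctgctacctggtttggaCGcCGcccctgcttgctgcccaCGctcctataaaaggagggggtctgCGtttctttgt

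The 4 windows differ widely in CpG content. The Nox1 window holds 2 CpG at 38% G+C, and 18.8% of the 32851 RefSeq promoters hold fewer. The Noxo1 window holds 37 CpG at 80% G+C, more than 97.8% of promoters. Duox2 and Duoxa2 start 673 bases apart and point away from each other. The Duox2 window holds 6 CpG, the median of all promoters (quartiles 2 and 16), and the Duoxa2 window holds 15. The windows of Noxa1 and Cyba, which are not printed, hold 8 and 6 CpG. The 6 genes thus sit on both sides of the middle of all promoters, with Nox1 the poorest and Noxo1 the richest in CpG.

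**Figure D1:**
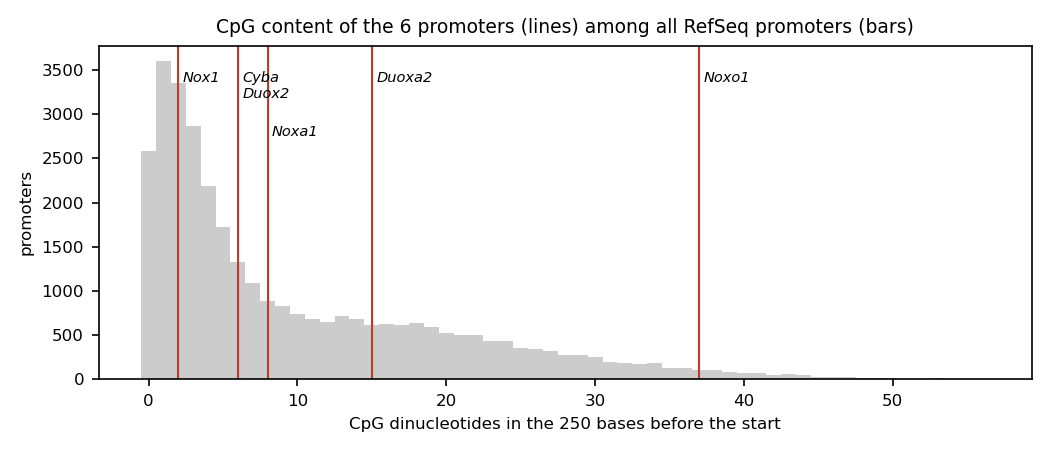
CpG dinucleotides in the 250 bases before the start (horizontal axis) for all RefSeq promoters (grey bars, number of promoters on the vertical axis) and for the 6 oxidase genes (red lines). Nox1, at 2 CpG, lies near the left end, Cyba and Duox2 share the median of 6, and Noxo1, at 37, lies in the right tail.

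Short motifs were searched on both strands of the same windows. GATAA, the core bound by GATA factors, occurs 3 times in the Nox1 window, at 199, 157 and 45 bases before the start, 2 times in that of Cyba and 1 time in that of Noxa1, and 22.6% of all promoters hold it at least 1 time. TTTATG, a core of caudal homeobox sites, occurs 1 time in the Nox1 window and in 10.8% of all promoters. TATAAA, the TATA box core, occurs 1 time in the Duoxa2 window, 30 bases before the start, and in 12.4% of all promoters. Each is a match of letters only, and no binding was measured.

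Nox1 reads were nearly lost in the RingKO libraries. Nox1, the catalytic subunit, had 10 and 7 reads in RingKO, against 188 and 177 in WT. Scaled by the deposited size factors, it had 14.2 and 10.1 normalized reads in RingKO, against 120 and 125 in WT. Both RingKO libraries were far below both WT libraries, and the libraries of each genotype lay close together. In the authors' deposited table the mean was 13.6 in RingKO and 123 in WT, a fold of 0.110 or a log2 fold of -3.18. On the recovered reads edgeR gave -3.14 ± 0.27 (SE, n = 2 each), and DESeq2 gave -3.17 with a larger SE of 0.52. The RingKO reads pooled were 17, against 365 in WT, a normalized ratio of 0.0993 with a 95% counting interval of 0.0572 to 0.161. Of 7939 entries whose RingKO and WT means averaged at least 50, 7 had a deposited log2 fold as low or lower, Nox1 included.

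Nox1 was also the gene with the lowest ratio of the 6 between the library labelled Bcat_RingKO, in which Ring1 was lower but still read, and the Bcat library. It had 84 reads in Bcat_RingKO, against 41 in the much shallower Bcat library, or 37.6 normalized reads in Bcat_RingKO and 91.7 in Bcat. The ratio was 0.410 (95% counting interval 0.279 to 0.611), and 0.353 (0.240 to 0.526) after TMM scaling between these libraries. With 1 library a genotype this compares those libraries, and the intervals cover counting error only. Among entries with at least 50 normalized reads in either library, 8.13% were at least 2-fold lower and 25.0% at least 2-fold higher in Bcat_RingKO, and after TMM scaling 12.3% were at least 2-fold lower. By either scaling, Nox1 was the 1 gene of the 6 past 2-fold lower, and none of the 6 was past 2-fold higher.

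**Figure D2:**
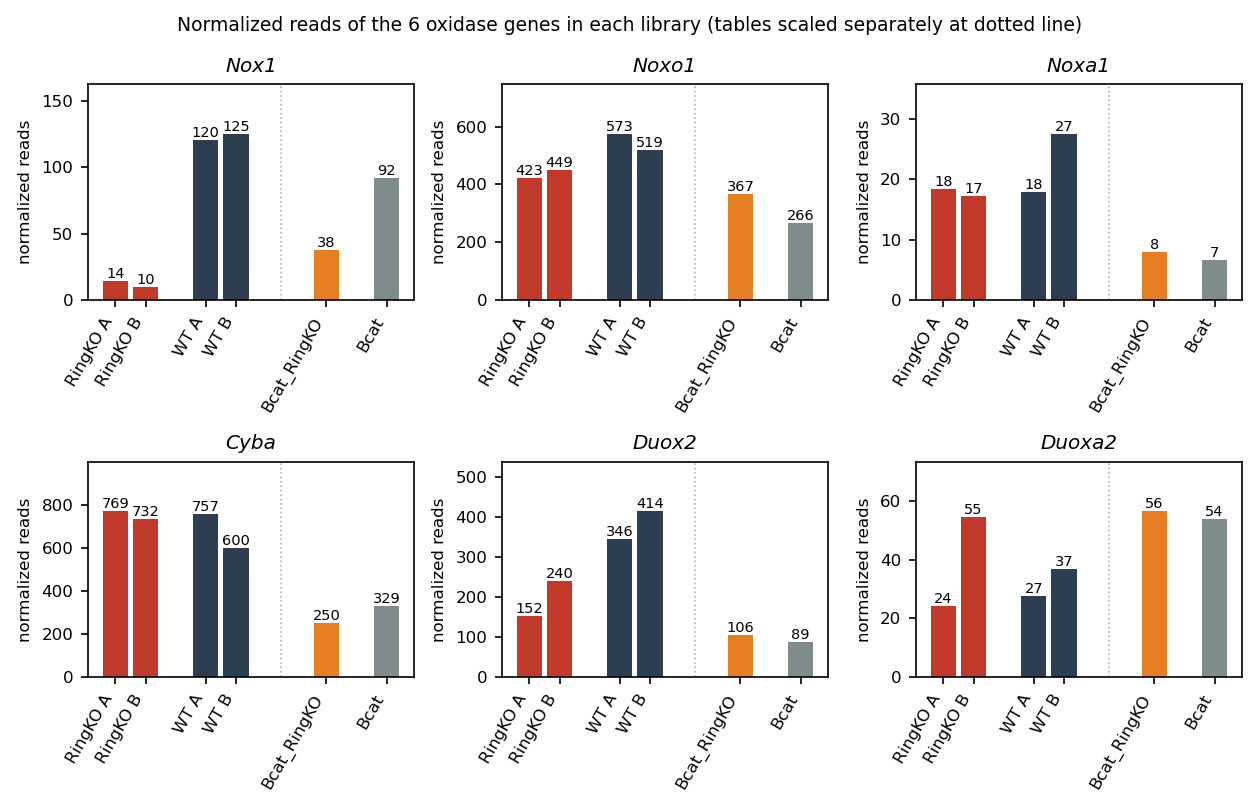
Normalized reads (vertical axis, linear and from 0, 1 panel a gene) in each library, with RingKO in red, WT in dark blue, Bcat_RingKO in orange and Bcat in grey; numbers over the bars are rounded values, and the dotted line parts the tables, which were scaled separately. The Nox1 bars of RingKO, at 14.2 and 10.1, stand far below those of WT, at 120 and 125, while the other genes show smaller differences or overlapping bars.

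The partners of Nox1 did not share a difference of that size. Noxo1, the organizer that brings the cytosolic partners to the membrane, had 298 and 313 reads in RingKO, against 897 and 737 in WT. Its normalized reads were 423 and 449 in RingKO, against 573 and 519 in WT. Both RingKO libraries were thus below both WT libraries, by a deposited log2 fold of -0.32, which edgeR put at -0.14 ± 0.14 (SE, n = 2 each). In the Ctnnb1-ex3 animals Noxo1 stood on the other side, at 367 normalized reads in Bcat_RingKO and 266 in Bcat, a ratio of 1.38 (1.14 to 1.69). After TMM scaling that interval reached 1 (ratio 1.19, 0.979 to 1.45).

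Noxa1, the activator that stimulates electron flow through NOX1, was the lowest of the partners. It had 13 and 12 reads in RingKO, against 28 and 39 in WT, or 18.5 and 17.2 normalized reads in RingKO and 17.9 and 27.5 in WT. One RingKO library lay between the WT libraries, so the groups overlapped, and the edgeR log2 fold was -0.15 ± 0.39 (SE, n = 2 each). Without WT library B it was 0.16, so its direction rests on that library. In the Bcat pair Noxa1 had 18 reads in Bcat_RingKO and 3 in Bcat, a ratio of 1.20 with a counting interval of 0.350 to 6.36, which is too wide to show a difference at this depth.

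Cyba, which encodes the p22phox membrane subunit shared by several NADPH oxidases, had the highest level per kb of transcript of the 6 in every library. Its normalized reads were 769 and 732 in RingKO, against 757 and 600.4 in WT. The groups overlapped, with a deposited log2 fold of 0.15 and an edgeR value of 0.33 ± 0.16 (SE, n = 2 each). In the Bcat pair it had 559 reads in Bcat_RingKO and 147 in Bcat, or 250 and 329 normalized reads, a ratio of 0.761 (0.633 to 0.918). TMM scaling lowered that ratio to 0.655 (0.545 to 0.791), on the same side of 1.

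Duox2 was lower in RingKO, by less than Nox1. The dual oxidase had 107 and 167 reads in RingKO, against 541 and 588 in WT, or 152 and 240 normalized reads in RingKO and 346 and 414 in WT. Both RingKO libraries were below both WT libraries, and the RingKO libraries differed from each other more than the WT libraries did. The deposited fold was 0.518 (log2 -0.95), and edgeR gave -0.76 ± 0.23 (SE, n = 2 each), or -0.44 without RingKO library A and -1.17 without RingKO library B. Of the 7939 entries whose RingKO and WT means averaged at least 50, 194 had a deposited log2 fold as low or lower. In the Bcat pair Duox2 had 236 reads in Bcat_RingKO and 40 in Bcat, or 106 and 89.4 normalized reads, a ratio of 1.18 whose counting interval holds 1 (0.841 to 1.69). After TMM scaling the Duox2 ratio was 1.02 (0.724 to 1.46).

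Duoxa2, which DUOX2 needs to leave the endoplasmic reticulum, did not follow Duox2. It had 17 and 38 reads in RingKO, against 43 and 52 in WT, or 24.2 and 54.6 normalized reads in RingKO and 27.5 and 36.6 in WT. The RingKO libraries lay on either side of the WT libraries. The edgeR log2 fold was 0.49 ± 0.42 (SE, n = 2 each), and it was -0.25 without RingKO library B, so its direction rests on 1 library. In the Bcat pair it had 56.3 normalized reads in Bcat_RingKO and 53.7 in Bcat, a ratio of 1.05 (0.675 to 1.70) that TMM scaling put below 1 (0.904).

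In the authors' deposited table, 2 of the 6 genes passed an adjusted p under 0.05, Nox1 and Duox2, and both were lower in RingKO. Over all 18376 entries 4.90% passed, 1.76% as lower and 3.14% as higher, and the share was 8.04% once entries under a mean of 10 were left out. The rule that chose the 6 genes used this contrast, so the count is a description. The call of Duox2 was not shared by edgeR's quasi-likelihood fit over all entries (adjusted p 0.0740). Both RingKO libraries were below both WT libraries for 3 of the 6, Nox1, Noxo1 and Duox2, where 45.8% of entries with a mean of at least 10 had that order and 18.4% had the opposite order. The median deposited log2 fold of entries with a deposited mean of at least 10 was -0.18, and TMM scaling moved all values up by 0.18.

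**Figure D3:**
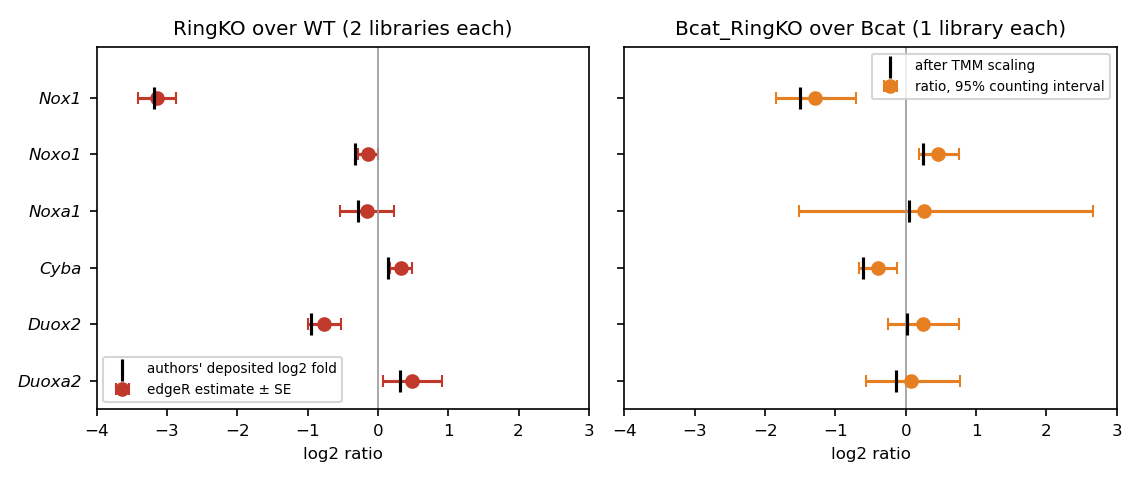
Log2 ratio (horizontal axis) of each oxidase gene, RingKO over WT at left (points, edgeR estimate with SE bars, 2 libraries a genotype; black ticks, the authors' deposited log2 fold) and Bcat_RingKO over Bcat at right (points, ratio with 95% counting interval, 1 library a genotype; black ticks, the ratio after TMM scaling). Nox1 is the gene farthest to the left in both panels, at -3.14 and -1.29.

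Per kb of transcript, the order of the genes within a library could be read across genotypes. Cyba was first and Noxo1 second in all 6 libraries. The level of Noxo1 is uncertain, since it shares exon bases with Tbl3 on the other strand. Nox1 had 5.54 and 3.92 normalized reads per kb in RingKO, the lowest of the 6 in both libraries, against 46.9 and 48.7 in WT, where it was the 4th. It was the 5th of 6 in Bcat_RingKO, at 14.7 per kb, and the 3rd in Bcat, at 35.8. Of the summed level of the 6 genes per kb, Nox1 made up 0.433% and 0.307% in RingKO, against 3.33% and 4.06% in WT, and 2.56% in Bcat_RingKO, against 5.50% in Bcat. Noxo1 exceeded Nox1 in each of the 6 libraries, at 189 and 201 per kb in RingKO, 256 and 232 in WT, 164 in Bcat_RingKO and 119 in Bcat. Duox2 was the 3rd in RingKO (26.5 and 41.7 per kb) and in WT (60.2 and 72.1), the 4th in Bcat_RingKO (18.4) and the 5th in Bcat (15.6). The values per kb in RingKO and WT come from one table and those of the Bcat pair from another, so levels are not compared between the tables.

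Ratios of genes within a library do not depend on how libraries were scaled. Nox1 per Noxo1, in reads per kb, was 0.0293 and 0.0195 in RingKO, against 0.183 and 0.210 in WT. It was 0.0893 (95% counting interval 0.0705 to 0.112) in Bcat_RingKO, against 0.301 (0.206 to 0.432) in Bcat. The RingKO libraries and the library labelled Bcat_RingKO, in which Ring1 was still read, thus had the lower Nox1 to Noxo1 ratio in their comparisons. The intervals of the Bcat pair did not overlap. This ratio is uncertain, since 60.2% of the Noxo1 transcript is shared with Tbl3 on the other strand. Nox1 per Cyba was 0.00537 and 0.00398 in RingKO, against 0.0461 and 0.0603 in WT, and 0.0436 (0.0343 to 0.0549) in Bcat_RingKO, against 0.0810 (0.0558 to 0.115) in Bcat. In the Bcat pair these intervals were also apart, by a small margin.

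Nox1 per Duox2 was 0.209 and 0.0939 in RingKO, against 0.779 and 0.675 in WT, and 0.798 in Bcat_RingKO, against 2.30 in Bcat. Nox1 was thus lower relative to the dual oxidase as well, although Duox2 itself was lower in RingKO. Noxa1 per Nox1 was 2.06 (0.835 to 5.25) and 2.72 (0.986 to 8.15) in RingKO, with counting intervals that hold 1. It was below 1 elsewhere, at 0.236 and 0.349 in WT, 0.340 in Bcat_RingKO and 0.116 in Bcat. Duoxa2 per Duox2 was 0.573 (0.322 to 0.961) and 0.821 (0.561 to 1.17) in RingKO, against 0.287 (0.205 to 0.392) and 0.319 (0.236 to 0.424) in WT. It was above 1 in both Ctnnb1-ex3 libraries, at 1.93 (1.54 to 2.40) in Bcat_RingKO and 2.16 (1.25 to 3.68) in Bcat, with overlapping intervals.

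**Figure D4:**
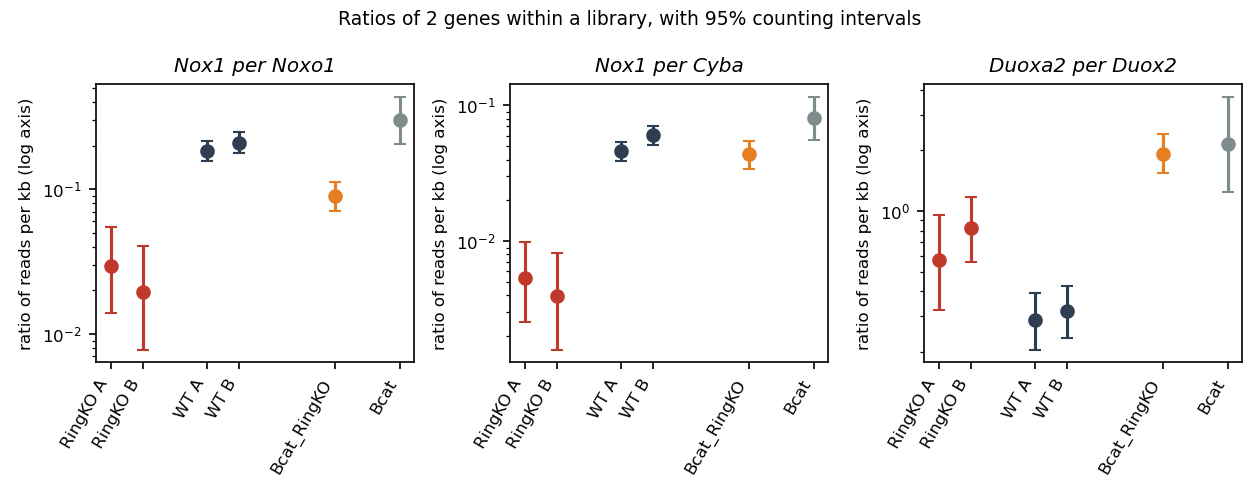
Ratio of 2 genes within each library, in reads per kb on a log axis, for Nox1 per Noxo1, Nox1 per Cyba and Duoxa2 per Duox2; points are ratios and bars 95% counting intervals, with RingKO in red, WT in dark blue, Bcat_RingKO in orange and Bcat in grey. Nox1 per Noxo1 was 0.0293 and 0.0195 in RingKO, against 0.183 and 0.210 in WT, and Duoxa2 per Duox2 was above 1 in both Ctnnb1-ex3 libraries. Noxo1 reads are uncertain, since the gene shares exon bases with Tbl3.

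Of the 6 genes, 4 share exon bases with a gene on the other strand in GENCODE M21 (GRCm38), the library kit does not mark strand, and the labels do not say whether reads were counted by strand. Nox1 shares 399 bases (15.6% of its transcript) with Cstf2, a cleavage stimulation factor subunit that had 277 and 194 reads in RingKO, 909 and 910 in WT, 698 in Bcat_RingKO and 139 in Bcat. Cstf2 itself fell in RingKO, by less than Nox1 (log2 fold -0.86, adjusted p 0.00479 in the authors' deposited table). Noxo1 shares 1347 bases (60.2%) with Tbl3, a ribosome biogenesis factor with 321 and 273 reads in RingKO, 888 and 750 in WT, 519 in Bcat_RingKO and 78 in Bcat. Noxo1 itself had 298 and 313 reads in RingKO, 897 and 737 in WT, 821 in Bcat_RingKO and 119 in Bcat. Noxo1 reads, and ratios to Noxo1, are therefore uncertain, since reads of either gene cannot be told apart in the shared bases. Duoxa2 shares 682 bases (42.8%) with Duoxa1, which had 3 and 4 reads in RingKO, 1 and 3 in WT, 7 in Bcat_RingKO and 0 in Bcat, and Noxa1 shares 50 bases (3.09%) with Entpd8. The part of these neighbours in the members' values was not tested.

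Other catalytic subunits were at or near the floor of the counts. Cybb, the phagocyte oxidase NOX2, had 3 and 2 reads in RingKO, 22 and 6 in WT, 9 in Bcat_RingKO and 5 in Bcat. Duox1 had 0 and 1 reads in RingKO, 6 and 4 in WT, 5 in Bcat_RingKO and 0 in Bcat. Of the catalytic subunits in the table, Nox1 and Duox2 were the ones that passed 22 reads in any library. Nox3 and Nox4 were not analysed here. Reads in the following lists are unscaled, and the RingKO libraries were shallower than the WT libraries. Of 7 further partners and activators of NADPH oxidases, Rac1 among them, 1 rose in RingKO in the authors' deposited table and none fell. Over all entries 4.90% were called. The median log2 fold of the list was -0.13. It was 0.02 over all entries, and -0.18 over entries with a deposited mean of at least 10. Rac3, a Rac family GTPase, rose, with 51 and 56 reads in RingKO, against 36 and 31 in WT (log2 fold 1.75, adjusted p 0.00265 in the authors' deposited table). It had 149 reads in Bcat_RingKO, against 3 in the shallower Bcat library, or 66.6 and 6.71 normalized reads. Rac1, the widely expressed family member that serves NOX1, had 866 and 742 reads in RingKO and 1957 and 1790 in WT, a log2 fold of -0.13 that did not pass.

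Of 16 genes that remove superoxide and peroxide, 1 rose in RingKO and none fell, where 4.90% of all entries were called, with a median log2 fold of -0.22. Gpx8, a glutathione peroxidase of the endoplasmic reticulum, rose, with 33 and 18 reads in RingKO, against 1 and 3 in WT (log2 fold 4.21, adjusted p 0.000932 in the authors' deposited table). The abundant members did not pass: the log2 fold was 0.12 for Sod1, -0.36 for Cat, -0.22 for Gpx1 and -0.21 for Gpx2, the last the gastrointestinal glutathione peroxidase. Of 7 genes that supply NADPH none rose or fell in the authors' deposited table, with a median log2 fold of -0.15, 2 had an unadjusted p under 0.05, and both edgeR and DESeq2 called 1, H6pd, as higher, a call that edgeR lost without WT library B (adjusted p 0.226). Of 3 peroxidase genes in the table none passed by the authors' deposited adjusted p or had an unadjusted p under 0.05, and edgeR tested 1 of them, Pxdn, without a call.

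Of 21 genes of glutathione and thioredoxin metabolism and of the NRF2 response, 1 rose and 1 fell in RingKO. Over all entries 4.90% were called, and the median log2 fold of the list was -0.26. Gstm3, a glutathione transferase, fell, with 67 and 92 reads in RingKO, against 459 and 382 in WT (log2 fold -1.29, adjusted p 0.00015 in the authors' deposited table). Hmox1, heme oxygenase 1, rose, with 18 and 23 reads in RingKO, against 5 and 4 in WT (log2 fold 3.06, adjusted p 0.00283 in the authors' deposited table). These genes moved in opposite directions. With edgeR's quasi-likelihood test, both calls were lost without 1 WT library: the adjusted p was 0.068 for Gstm3 without WT library A and 0.054 for Hmox1 without WT library B.

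Of 14 epithelial defence genes in the table, 3 fell in RingKO and none rose, where 1.76% of all entries were called lower and 3.14% higher. Their median log2 fold was 0.05. Reg3b, a secreted antimicrobial lectin, fell, with 60 and 82 reads in RingKO, against 1165 and 1228 in WT (log2 fold -2.97, adjusted p 4.29e-30 in the authors' deposited table), and had 281 in Bcat_RingKO, against 634 in the shallower Bcat library. Nos2, inducible nitric oxide synthase, fell, with 28 and 50 reads in RingKO, against 188 and 185 in WT (log2 fold -1.14, adjusted p 0.0283 in the authors' deposited table). Pigr, which carries IgA across the epithelium, fell, with 11355 and 9468 reads in RingKO, against 33498 and 33318 in WT (log2 fold -0.59, adjusted p 0.0298 in the authors' deposited table). With edgeR's quasi-likelihood test the adjusted p was 0.06 for Nos2 and 0.185 for Pigr, so these calls were lost, while Reg3b kept its call (0.000165). With DESeq2 the adjusted p was 0.042 for Pigr, which kept its call, and 0.124 for Nos2, which did not.

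**Figure D5:**
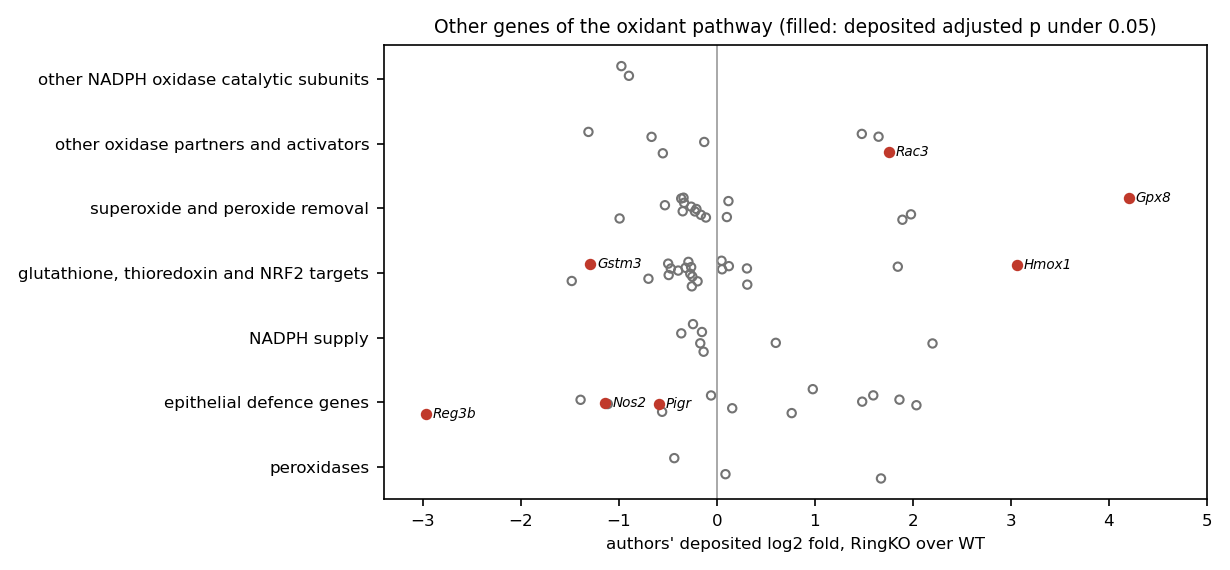
The authors' deposited log2 fold, RingKO over WT (horizontal axis), of each gene of 7 lists around the oxidases (rows, spread vertically for legibility); filled red points passed a deposited adjusted p under 0.05 and are named, open points did not. Most points lie near 0, with Reg3b at -2.97 and Gpx8 at 4.21 as the outermost named genes.

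By the 2 deposited log2 folds, the genes nearest to Nox1 among 7330 candidates were Alox5, Spib, Insm1, Ring1 and Btnl2. Alox5, which makes leukotrienes and is on the list of tuft cell markers, had log2 folds of -2.80 in RingKO over WT and -0.84 in Bcat_RingKO over Bcat. Those of Nox1 were -3.18 and -1.30, a Euclidean distance of 0.597. Spib, an ETS transcription factor, was at -2.45 and -1.87, and Insm1, a zinc finger factor of enteroendocrine precursors, at -2.26 and -1.54. Ring1 lies among them although it is a deleted gene. The nearest to Duox2 were Papolg, Cenpc1, Gfm1, Lonp2 and Foxm1, at distances of 0.0144 to 0.099. The 5 genes nearest to Nox1 lay at 0.597 to 1.15, over 2 values from 6 libraries. Of 7939 entries whose RingKO and WT means averaged at least 50, 7 had a log2 fold as low as Nox1 or lower. For Duox2 it was 194, so the distances of the 2 genes are not comparable.

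Markers of some other crypt cell types moved with the genotypes, not all in the same direction. By the authors' deposited adjusted p, 5 of 8 tuft cell markers and 6 of 8 enteroendocrine markers fell in RingKO, and 7 of 7 Paneth cell markers rose. Over all entries 1.76% were called lower and 3.14% higher. Summed normalized reads of the tuft list were 246 and 271 in RingKO, 880 and 884 in WT, 493 in Bcat_RingKO and 751 in Bcat. In the Bcat pair that difference was carried by Rgs13, and without it the sums were 466 in Bcat_RingKO and 501 in Bcat. For the enteroendocrine list they were 2755 and 2896 in RingKO, 6550 and 7783 in WT, 705 in Bcat_RingKO and 4367 in Bcat. The Paneth list summed to 39493 and 50314 in RingKO, 17697 and 11954 in WT, 2647 in Bcat_RingKO and 9680 in Bcat. Its sum was thus higher in RingKO than in WT, but lower in Bcat_RingKO than in Bcat. Of 9 stem cell markers 1 fell, Ascl2, and the list summed to 28107 and 14040 in RingKO, 34457 and 40337 in WT, 8001 in Bcat_RingKO and 9774 in Bcat. Without Olfm4 the sums were 14576 and 9538 in RingKO and 15220 and 16819 in WT. The Bcat pair then stood the other way round, at 6867 in Bcat_RingKO and 5094 in Bcat. Of 8 goblet cell markers 1 rose, of 10 enterocyte markers 1 rose and 2 fell, and of 8 stromal and endothelial markers 1 fell. Nox1 and Duox2 were lower in the same RingKO libraries, and the part of the cell mixture in their values was not tested.

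Leukocyte markers, which bear on Cyba and Cybb, were read at uneven levels. None of 17 passed by the authors' deposited adjusted p, edgeR or DESeq2, and 0 had an unadjusted p under 0.05. Only 7 of them had a deposited mean of at least 10, and edgeR tested 7, so low counts limit this result. Their sum was 266 and 378 in RingKO, 274 and 247 in WT, 287 in Bcat_RingKO and 282 in Bcat. Ptprc, the pan-leukocyte marker, had 0 and 0 reads in RingKO and 2 and 0 in WT. Cd74 had 95.2 and 101 normalized reads in RingKO, 102 and 101 in WT, 23.3 in Bcat_RingKO and 33.5 in Bcat. Cd68 had 81.0 and 154 normalized reads in RingKO, 62.0 and 59.9 in WT, 127 in Bcat_RingKO and 13.4 in Bcat. Of 7 colonic epithelium markers 1 rose, Hoxb13, and 1 fell, Slc26a3, where 4.90% of all entries were called. Hoxb13, a posterior homeobox gene, had 147 and 261 reads in RingKO, against 0 and 0 in WT, and Slc26a3, a chloride exchanger, had 14 and 28 in RingKO, against 136 and 123 in WT. Nox1, which is best known from the colon, was lower in the same RingKO libraries.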

How the data were processed

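Lgr5-GFP+ cells were sorted, RNA was extracted with the RNeasy Plus Micro kit and libraries were made with TruSeq RNA v2, per the labels' protocols. TopHat, DESeq and mm9 are named without versions, per the submitters' processing notes. Which counter and annotation were used, and whether strand was, is not given in the sources used here.

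The authors deposited normalized coverage (signal), which from its values is reads plus 1 added read, divided by a size factor: means of 2 libraries for RingKO and WT, and 1 value a library for Bcat_RingKO and Bcat, in tables scaled separately. They also deposited a fold (ratio), its log2 value and p-values, with adjusted p-values for the first table; the p-values of the Bcat pair, with 1 library a genotype, were not used. A call is the authors' deposited adjusted p under 0.05.

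Whole reads of single libraries were solved from the means (in WT 18363 entries had 1 solution and 13 had several, none a member; in RingKO all 18376 had 1), and all 17076 entries of the Bcat pair were whole within 0.001. Of the accessions, 98.7% matched the reference. On these reads edgeR 4.0.16 in R 4.3.3 gave log2 folds with SE (TMM scaling, filterByExpr, quasi-likelihood test, Benjamini-Hochberg adjustment). DESeq2 1.42.0 was an alternative, and both were tested on simulated data. The edgeR SE was worked back as the absolute log2 fold divided by the square root of the quasi-likelihood F statistic. The SE that DESeq2 fitted was larger for each member, at 0.52 for Nox1 and 0.71 for Noxa1. The deposited tables were the main source because that test had been chosen for group means. Counting intervals are exact Clopper-Pearson at 95% (SciPy 1.17.1) and cover counting error only, and p-values measure the spread between libraries, which may be technical. Other alternatives were the deposited size factors, no filter and leaving out each library. The members and lists were chosen with earlier results of these data known. Named genes were the members, up to 3 called genes of each list by adjusted p, the deleted genes, genes that define other oxidases, and the 5 genes nearest to Nox1 and to Duox2 among those with at least 50 in a column of each table. Genes named outside this rule (Cstf2, Tbl3, Entpd8, marker genes and uncalled examples of the lists) were chosen after their values were seen. A gene of the list of other oxidase partners is not reported here.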

Additional observations from a re-analysis of the deposited data

Results flagged for a closer look

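Noxo1 stood on opposite sides in the 2 genetic settings: both RingKO libraries were below both WT libraries, while the Bcat_RingKO to Bcat ratio was 1.38. The order in RingKO and WT was shared by 45.8% of entries, the edgeR log2 fold of Noxo1 was -0.14 with an SE of 0.14, and after TMM scaling the Bcat_RingKO to Bcat ratio was 1.19 with a counting interval that holds 1 (0.979 to 1.45). For Duox2 both RingKO libraries were below both WT libraries, and the Bcat_RingKO to Bcat ratio was 1.18 by the deposited scaling and 1.02 (0.724 to 1.46) after TMM scaling, with counting intervals that hold 1. The difference between the settings was not tested, because the Bcat pair has 1 library a genotype. No genotype has 4 libraries, so single libraries were not screened as outliers.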

How the results depend on the processing

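No paired analysis was possible because the recovered libraries carry no replicate numbers, so no replicate block could be fitted. Of 54 alternative log2 folds of the 6 genes in RingKO over WT, 40 stayed within the spread between libraries and 14 moved, and 12 alternative ratios of the Bcat pair stayed within their counting intervals. Noxo1, with a deposited log2 fold of -0.32, was at -0.14 with edgeR and TMM, -0.16 with DESeq2 and -0.18 with no filter, and Cyba, at 0.15, was at 0.33 with edgeR and TMM. Entries called were 900 by the authors' deposited table, against 1437 with edgeR and TMM, 1750 with the deposited size factors and 1375 with no filter. Those called higher were 577, against 1107, 967 and 1060 under the same settings and 872 with DESeq2, and those called lower were 323, against 783 with the deposited size factors. Entries at least 2-fold lower in Bcat_RingKO were 646, and 975 after TMM scaling, an alternative chosen after seeing the data. With edgeR, the lists gained calls: 1 other partner fell (Rac2), 2 removal genes rose, 1 NADPH supply gene rose (H6pd) and 2 defence genes rose, while 1 defence gene fell instead of 3. The calls edgeR added were each lost without 1 WT library, at adjusted p-values of 0.184 (Zbp1) to 0.285 (Rac2). Leaving out each library in turn with edgeR, log2 folds ran from -3.37 to -2.95 for Nox1, -0.23 to -0.062 for Noxo1, -0.44 to 0.16 for Noxa1, 0.15 to 0.51 for Cyba, -1.17 to -0.44 for Duox2 and -0.25 to 0.99 for Duoxa2. A lone library left in a genotype was assumed to vary like the other genotype's. Entries called ran from 566 to 3276, called higher from 479 to 1938 and called lower from 83 to 1338. No member has another RefSeq entry in either table, so that alternative gave no value. Depth limits Noxa1 and Duoxa2 in Bcat, with 3 and 24 reads, and Nox1 in RingKO, with 10 and 7.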
